A study of Mus musculus with 8 samples.

Results

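Collagens are the main structural proteins of the connective tissue that carries the colonic epithelium. Their chains wind around one another into long helices, and the assembled molecules fall into classes. Fibrillar collagens form the banded fibres of the lamina propria and submucosa. Type IV collagen forms the sheet-like network of basement membranes under epithelium and around vessels, nerves and muscle cells. Fibroblasts, smooth muscle cells, pericytes and endothelial cells are their usual sources in gut, and in colitis the matrix is both broken down and laid down anew.

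The collagen genes were taken as every row of the expression table whose symbol is Col, a type number, the letter a and a chain number. This rule uses no measured value and found 44 of 18262 genes. By textbook class, 11 are fibrillar, 8 belong to basement membranes (the 6 type IV chains and types XV and XVIII) and 25 are of other kinds. RNA was sequenced from colon tissue of wild-type mice, every one of them a model of colitis by dextran sulfate sodium (DSS), which damages the epithelial lining. The DSS + GAA group has 4 libraries, with ganoderic acid A (GAA), a triterpenoid of Ganoderma fungi, given at 20 mg/kg by the study's design. The treatment labels of those 4 read 20, 21, 22 and 23 mg/kg. The DSS group has 4 libraries without GAA, and both groups use the replicate numbers 1, 2, 4 and 5. Strain, sex, age and days of treatment are not given in the sources used here, and nothing says that each library is a separate animal. P-values therefore measure the spread between these libraries. Tissue without DSS was not analysed here, so no healthy level is given.

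Values are TPM, a length-corrected share of transcripts scaled to the same total in each library. TPM keeps no depth, so counting error is unknown. Of the 44 collagen genes, 29 had at least 1 TPM in at least 4 libraries and were tested with limma on log2(TPM + 1), within a fit of 14217 genes. All 29 met that level in the 4 DSS libraries and 24 met it in the 4 DSS + GAA libraries, while Col6a5 met it in no DSS + GAA library. Col11a1 and Col25a1 met it in DSS + GAA replicate 1 alone, and Col13a1 in DSS + GAA replicates 1 and 2. A gene counts as called at an adjusted p under 0.05 over all tested genes.

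Among the 29 tested collagen genes, 15 were called lower in DSS + GAA colon, or 51.7%, and 0 were called higher. Of all tested genes, 28.2% were called lower and 5.96% higher. The median log2 fold change was -1.02 over the tested collagen genes and -0.25 over all tested genes. All 4 DSS + GAA libraries lay below all 4 DSS libraries for 9 of the 29, against 27.6% of all tested genes. Col6a5 is among these 9, and for that gene the filter fixed the separation in advance. It is also among the 15 called lower. The call count depended on scaling and on single libraries. Under trimmed mean scaling, 8 collagen genes (27.6%) and 11.6% of all genes were called lower. Under quantile normalization these were 9 (31.0%) and 11.3%, and under median centring 7 (24.1%) and 9.20%. Over all genes, the calls numbered 847 higher and 4006 lower on TPM as deposited, and 1890 higher and 1648 lower under trimmed mean scaling. With DSS replicate 1 left out, 7 of 28 tested collagen genes (25%) and 12% of all genes were called lower. With DSS replicate 4 left out, 9 collagen genes (32.1%) and 19.1% of all genes were called lower. Without DSS + GAA replicate 4 these were 9 (31%) and 20.3%, and without DSS + GAA replicate 1 they were 23 (79.3%) and 31.4%. The median of the 29 was -0.79 under trimmed mean scaling, -0.63 under quantile normalization and -0.71 under median centring, where the median of all genes was -0.0040, 0.02 and 0.05. In each of these 3, 27 of the 29 lay below the median of all genes, the same number as on TPM as deposited. In every fit 0 collagen genes were called higher; at an unadjusted p under 0.05 in limma, 0 were higher as well.

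Col4a1, Col4a2, Col16a1 and Col28a1 were called lower under all 17 alternatives tried. Col13a1, a transmembrane collagen, was called lower in the 16 in which it was tested, though it passed the filter mainly through the DSS group. Col6a5 was tested in 12 of the alternatives and called lower there. It passed the filter only through the DSS group, so this says nothing about its stability. In the authors' deposited table, 27 of the 44 collagen genes are lower and 0 are higher at a false discovery rate under 0.05. That set holds 18 of the 29 tested here, including all 15 called lower. The share of all genes that pass in the deposited table was not counted, so these counts have no background beside them.

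Col4a1 and Col4a2 encode the chains of the type IV network found in nearly all basement membranes, and on the log2(TPM + 1) scale they had the lowest fold changes of the tested members. With a pseudocount of 0.1 the log2 fold change was -2.15 for Col4a1, -2.01 for Col4a2 and -2.02 for the much less abundant Col6a5. In the authors' deposited table, the log2 fold change is -2.00 for Col4a1, -1.86 for Col4a2 and -2.28 for Col6a5. The genes lie start to start on chromosome 8, Col4a1 at 11198423 to 11312826 on the minus strand and Col4a2 at 11312805 to 11449287 on the plus strand (GENCODE vM21, GRCm38). Their annotated starts overlap by 22 bases, where reads could not be told apart if strand was not kept, and the pair is known to share a promoter region that works in both directions. The start-site windows below run from 250 bases before to 50 bases after each start (RefSeq, GRCm38.p6). They are printed for this pair because its chains moved together, with Col1a2 and Col3a1, the fibrillar genes with the most TPM, for comparison. Capitals mark a CCAAT box (CCAAT), a GC box (GGGCGG) or a TATA box (TATAAA) on either strand, and each is written along the strand of its own gene. The windows are chr8:11312777-11313076 on the minus strand for Col4a1, chr8:11312555-11312854 on the plus strand for Col4a2, chr6:4505368-4505667 on the plus strand for Col1a2 and chr1:45311288-45311587 on the plus strand for Col3a1.
Col4a1: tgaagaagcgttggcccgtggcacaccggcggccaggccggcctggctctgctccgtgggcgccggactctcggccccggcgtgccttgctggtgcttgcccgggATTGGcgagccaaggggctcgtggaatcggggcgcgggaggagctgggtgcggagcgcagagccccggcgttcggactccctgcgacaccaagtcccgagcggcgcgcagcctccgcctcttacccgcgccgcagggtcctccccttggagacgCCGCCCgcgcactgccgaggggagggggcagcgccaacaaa
Col4a2: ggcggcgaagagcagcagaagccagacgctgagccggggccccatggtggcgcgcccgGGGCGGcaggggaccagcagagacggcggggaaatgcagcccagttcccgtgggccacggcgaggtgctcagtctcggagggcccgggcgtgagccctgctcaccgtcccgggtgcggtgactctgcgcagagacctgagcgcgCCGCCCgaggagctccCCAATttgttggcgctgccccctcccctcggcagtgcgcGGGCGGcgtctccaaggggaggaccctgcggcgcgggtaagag
Col1a2: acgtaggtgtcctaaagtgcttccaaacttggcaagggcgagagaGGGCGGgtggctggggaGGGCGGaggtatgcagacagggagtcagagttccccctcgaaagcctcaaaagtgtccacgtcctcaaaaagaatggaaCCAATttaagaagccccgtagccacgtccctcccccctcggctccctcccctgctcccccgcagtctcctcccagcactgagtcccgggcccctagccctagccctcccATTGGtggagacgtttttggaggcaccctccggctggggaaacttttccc
Col3a1: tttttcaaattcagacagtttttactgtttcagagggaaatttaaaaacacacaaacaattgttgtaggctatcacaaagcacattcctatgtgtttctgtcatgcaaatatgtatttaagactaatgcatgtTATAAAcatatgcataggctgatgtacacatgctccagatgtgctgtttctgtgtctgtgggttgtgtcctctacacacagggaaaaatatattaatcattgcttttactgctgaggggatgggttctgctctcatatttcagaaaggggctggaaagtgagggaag

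The Col4a1 and Col4a2 windows share 78 bases of the same stretch, read from opposite strands. The Col4a1 window holds 1 CCAAT box and 1 GC box, and the Col4a2 window 1 CCAAT box and 3 GC boxes. The Col1a2 window holds 2 of each, and the Col3a1 window holds neither but has 1 TATA box. RefSeq windows were found for 35 of the 44 genes, 3 of them with more than 1 window, 38 windows in all. A GC box is in 60.5% of these and in 35.7% of all 32851 mouse windows. A CCAAT box is in 34.2% and 37.4%, a TATA box in 13.2% and 13.6%, and an AP-1 motif (TGANTCA) in 2.63% and 7.81%. Motifs of different kinds were counted separately even where their bases overlap, and a match in these windows is a description of the letters alone.

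Col4a1 had 129, 75.4, 31.0 and 32.5 TPM in DSS + GAA replicates 1, 2, 4 and 5, against 401, 253, 278 and 138 TPM in DSS replicates 1, 2, 4 and 5. The groups did not overlap, although the highest DSS + GAA library lay close under the lowest DSS library. The mean was 67.0 ± 46.2 TPM in DSS + GAA and 267 ± 108 TPM in DSS (SD, n = 4 each), and the log2 fold change was -2.13 ± 0.48 (SE; limma adjusted p = 0.0118). Col4a2 had 67.5, 40.0, 18.9 and 16.0 TPM in the DSS + GAA libraries, in the same replicate order, against 199, 102, 136 and 79.2 TPM in the DSS libraries. Its groups did not overlap either, with a log2 fold change of -1.97 ± 0.45 (limma adjusted p = 0.0123). The two-sided exact permutation p over 70 assignments of the 8 libraries was 0.0286 for both genes, the smallest these libraries can give. In bulk tissue, fewer cells of a type and less RNA per cell cannot be told apart, here and in all that follows.

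The other type IV chains were far less abundant. Col4a5 and Col4a6, neighbours on the X chromosome whose chains form the type IV network of smooth muscle basement membranes, did not pass. Col4a5 averaged 8.51 ± 4.06 TPM in DSS + GAA and 12.9 ± 1.28 TPM in DSS (log2 fold change -0.64 ± 0.26, limma adjusted p = 0.0896). Its highest library was DSS + GAA replicate 1, at 14.1 TPM. Col4a6 averaged 1.91 ± 0.89 TPM in DSS + GAA and 3.41 ± 1.06 TPM in DSS (-0.62 ± 0.25, limma adjusted p = 0.0810). Both were called only without DSS + GAA replicate 1. Col4a3 and Col4a4, best known from the kidney glomerulus and also arranged start to start, stayed under 1 TPM in every library and were not tested. Col4a3 averaged 0.19 TPM in DSS + GAA and 0.55 TPM in DSS, and Col4a4 0.20 and 0.62 TPM in those groups.

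Types XV and XVIII carry heparan or chondroitin sulfate chains in basement membrane zones, and the end of the type XVIII chain is the source of endostatin. Col18a1 had 37.6, 21.2, 8.03 and 7.36 TPM in DSS + GAA replicates 1, 2, 4 and 5, against 80.6, 54.1, 65.0 and 24.3 TPM in DSS. DSS + GAA replicate 1 lay above DSS replicate 5, and the other DSS + GAA libraries lay below all DSS libraries. The log2 fold change of Col18a1 was -1.71 ± 0.53 (limma adjusted p = 0.0346). The 3 other scalings each ended this call, as did leaving out any of DSS replicates 1, 2 and 4 or any of DSS + GAA replicates 2, 4 and 5 (limma adjusted p up to 0.108). Slc19a1 overlaps Col18a1 on the opposite strand, and whether the libraries kept strand is not given. Col15a1 averaged 6.04 ± 4.42 TPM in DSS + GAA and 11.9 ± 5.15 TPM in DSS and did not pass (-0.998 ± 0.46, limma adjusted p = 0.121). In the basement membrane class, 3 of 6 tested genes were thus called lower, with a median log2 fold change of -1.36, and 6 were called without DSS + GAA replicate 1.

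**Figure D1:**
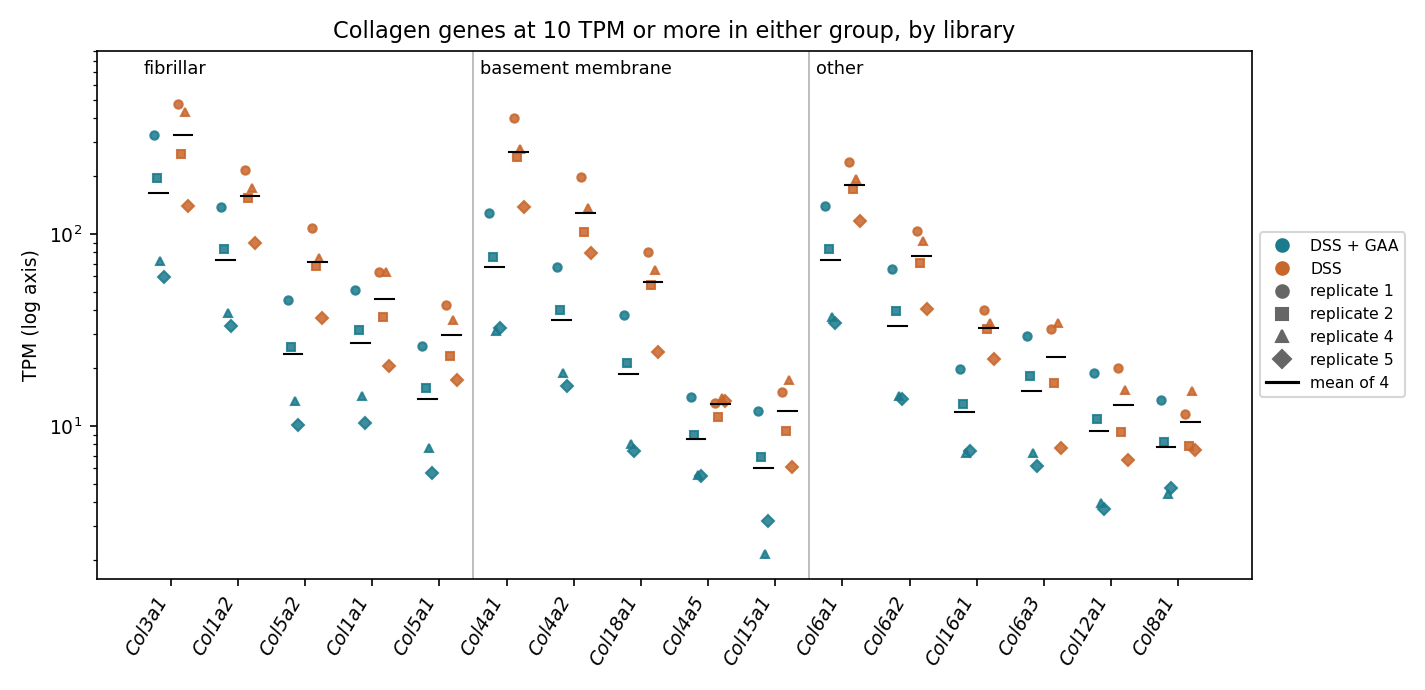
TPM of each collagen gene with a mean of at least 10 TPM in either group (log axis), by class, with DSS + GAA libraries left of DSS libraries, a symbol for each replicate number and a bar at the mean of 4. Col4a1, Col4a2 and Col16a1 have groups that do not overlap, and DSS + GAA replicate 1 is the highest of its group in each gene shown.

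Among fibrillar collagens, 4 of 8 tested genes were called lower, and the most abundant chains were not among them. Their median log2 fold change was -1.19. Leaving out DSS replicate 1 left 1 fibrillar call. Leaving out any of DSS replicates 2 and 4 and DSS + GAA replicate 4 left 2, and leaving out DSS + GAA replicate 1 gave 7. Under the other scalings 2 (trimmed mean), 2 (quantile) and 1 (median centring) were called.

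Col3a1, the type III chain of reticular fibres, had the most TPM of the family. It had 326, 195, 72.2 and 59.3 TPM in DSS + GAA replicates 1, 2, 4 and 5, against 477, 259, 433 and 139 TPM in DSS. DSS + GAA replicates 1 and 2 lay among the DSS libraries, and replicates 4 and 5 lay below them. The log2 fold change of -1.19 ± 0.58 did not pass (limma adjusted p = 0.139; two-sided exact permutation p = 0.171). Col1a2, a chain of type I, the main collagen of tendon, skin and scar, had 139, 83.5, 38.6 and 33.0 TPM in DSS + GAA, against 215, 153, 173 and 90.2 TPM in DSS. In Col1a2 only DSS + GAA replicate 1 reached above DSS replicate 5, and the fold change was just short of the threshold (-1.26 ± 0.45, limma adjusted p = 0.0551). Col1a1, the partner chain, had 51.1, 31.6, 14.4 and 10.3 TPM in DSS + GAA, against 63.2, 36.9, 63.1 and 20.5 TPM in DSS. Its groups overlapped widely (-0.88 ± 0.51, limma adjusted p = 0.210), and it passed in none of the alternatives.

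Type V collagen is built into type I fibrils and limits their width. Col5a2 had 45.0, 25.6, 13.4 and 10.1 TPM in DSS + GAA replicates 1, 2, 4 and 5, against 107, 67.7, 74.8 and 36.5 TPM in DSS. Only DSS + GAA replicate 1 lay above the lowest DSS library, and the log2 fold change was -1.69 ± 0.46 (limma adjusted p = 0.0222). Median centring and trimmed mean scaling ended the call, and so did leaving out any of DSS replicates 1, 2 and 4 or DSS + GAA replicate 4 (limma adjusted p up to 0.0751). Col5a3 averaged 2.83 ± 1.46 TPM in DSS + GAA and 9.78 ± 4.81 TPM in DSS (-1.45 ± 0.36, limma adjusted p = 0.0161). DSS + GAA replicate 1 and DSS replicate 5 were nearly level, and the call was lost without DSS replicate 1 (limma adjusted p = 0.0522). Col5a1, the chain shared by most type V molecules, averaged 13.8 ± 9.31 TPM in DSS + GAA and 29.7 ± 11.5 TPM in DSS and did not pass (-1.19 ± 0.44, limma adjusted p = 0.0654).

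Of 5 further fibrillar genes of low level, 2 were called lower and 3 were not tested. Col11a1, a chain best known from cartilage fibrils, had 1.22, 0.84, 0.48 and 0.41 TPM in DSS + GAA, against 2.46, 2.13, 1.54 and 2.40 TPM in DSS. The groups did not overlap (-0.86 ± 0.19, limma adjusted p = 0.0108), and the call was lost under quantile normalization and median centring (adjusted p up to 0.0674). Col27a1 averaged 3.62 ± 2.12 TPM in DSS + GAA and 7.89 ± 2.09 TPM in DSS (-1.02 ± 0.32, limma adjusted p = 0.0354). For Col27a1, each of the 3 other scalings ended the call, and leaving out any library except DSS replicate 5 and DSS + GAA replicate 1 did too (limma adjusted p up to 0.162). Col2a1, the type II chain of cartilage, was at most 0.029 TPM in DSS + GAA and 0.089 TPM in DSS, and it was listed at 0 in 3 DSS + GAA libraries. Col11a2 (0.46 and 0.56 TPM on average in DSS + GAA and DSS) and Col24a1 (0.36 and 0.86 TPM) were also untested.

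**Figure D2:**
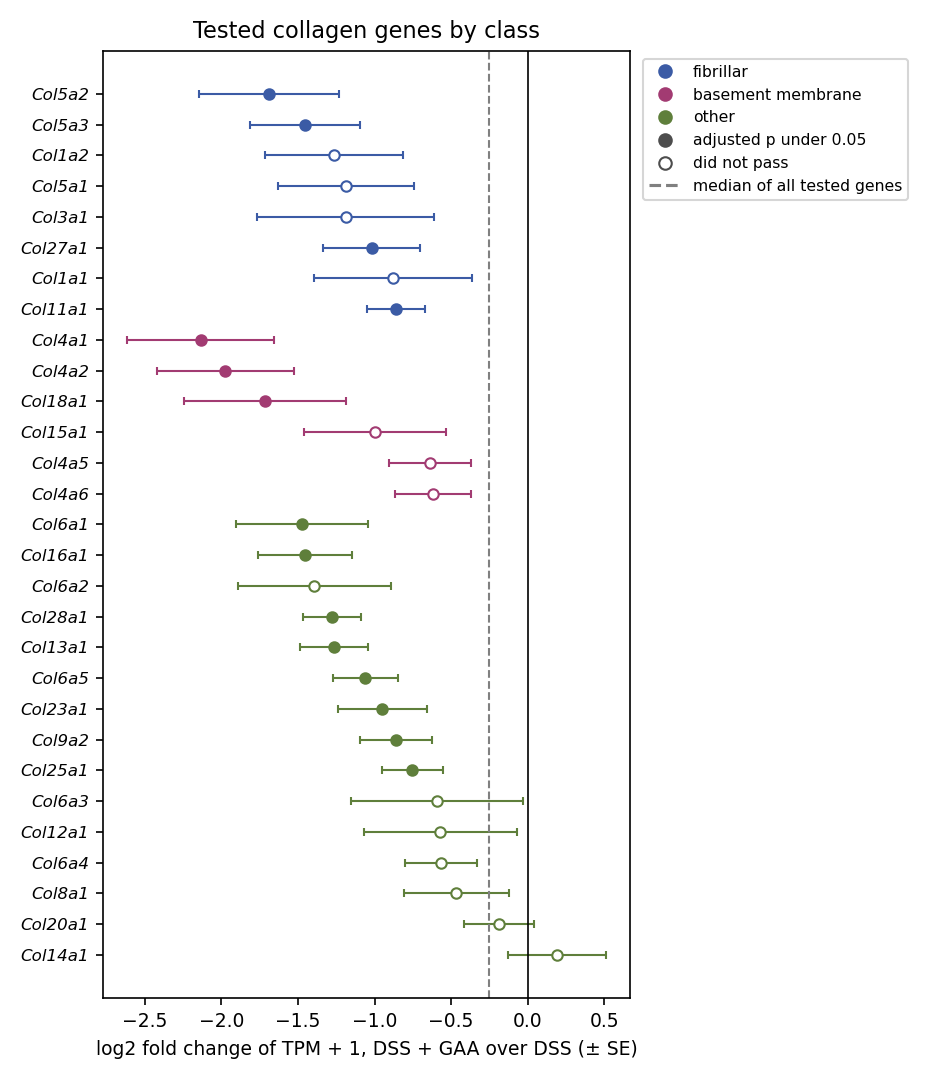
Log2 fold change of TPM + 1, DSS + GAA over DSS, with its SE for the 29 tested collagen genes by class. Filled points passed at an adjusted p under 0.05, and the dashed line is the median of all tested genes at -0.25; Col14a1 is the only point above 0.

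In the remaining classes, 8 of 15 tested genes were called lower, with a median log2 fold change of -0.86. Leaving out DSS replicate 1 gave 4 calls, and leaving out any of DSS replicate 4 and DSS + GAA replicates 4 and 5 gave 5. Median centring and trimmed mean scaling gave 4 each, and quantile normalization gave 5. Type VI collagen forms beaded filaments between cells and fibres. Its Col6a1 chain had 139, 83.4, 36.9 and 34.4 TPM in DSS + GAA replicates 1, 2, 4 and 5, against 236, 171, 194 and 117 TPM in DSS. Only DSS + GAA replicate 1 lay above DSS replicate 5, and the log2 fold change was -1.47 ± 0.43 (limma adjusted p = 0.0290). Median centring and trimmed mean scaling ended that call, as did leaving out any of DSS replicates 1, 2 and 4 or of DSS + GAA replicates 4 and 5 (limma adjusted p up to 0.0918). Col6a2 averaged 33.2 ± 24.6 TPM in DSS + GAA and 76.5 ± 27.6 TPM in DSS and did not pass (-1.39 ± 0.50, limma adjusted p = 0.0577). Col6a3, the long chain of the same molecule, differed least of these chains, at 15.2 ± 10.9 TPM in DSS + GAA and 22.7 ± 12.7 TPM in DSS (-0.59 ± 0.56, limma adjusted p = 0.435).

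Col6a4, Col6a5 and Col6a6 are further chains of the type VI family whose genes lie next to one another on chromosome 9. Col6a5 had 0.67, 0.42, 0.30 and 0.27 TPM in DSS + GAA, against 3.29, 1.54, 1.99 and 1.25 TPM in DSS. The groups did not overlap (-1.06 ± 0.21, limma adjusted p = 0.00871), and with 1 DSS library left out it no longer met the level for testing. Its neighbour Col6a4 averaged 1.61 ± 0.86 TPM in DSS + GAA and 2.75 ± 0.49 TPM in DSS and did not pass (-0.57 ± 0.23, limma adjusted p = 0.0863). Col6a6 was under 0.1 TPM in every library.

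Fibril-associated collagens sit on the surface of fibrils and differed among themselves. Col16a1 had 19.7, 12.9, 7.22 and 7.40 TPM in DSS + GAA replicates 1, 2, 4 and 5, against 40.3, 31.8, 34.4 and 22.3 TPM in DSS. The groups did not overlap (-1.45 ± 0.31, limma adjusted p = 0.0100). Col9a2 averaged 2.22 ± 0.77 TPM in DSS + GAA and 4.83 ± 1.43 TPM in DSS, also without overlap (-0.86 ± 0.24, limma adjusted p = 0.0226). The 3 other scalings ended the call of Col9a2, as did leaving out DSS replicate 5 or any of DSS + GAA replicates 4 and 5 (limma adjusted p up to 0.181). Col12a1 (9.35 ± 7.16 TPM in DSS + GAA and 12.8 ± 6.04 TPM in DSS, limma adjusted p = 0.398) did not pass. Col20a1 averaged 2.52 ± 0.96 TPM in DSS + GAA and 2.92 ± 0.57 TPM in DSS (log2 fold change -0.19, limma adjusted p = 0.544). Its sign turned under the 3 other scalings and with DSS + GAA replicate 4 left out. Col14a1 was the only tested member with a positive log2 fold change, at 2.57 ± 1.41 TPM in DSS + GAA and 2.09 ± 1.14 TPM in DSS (0.19 ± 0.32, limma adjusted p = 0.666). Its sign turned without DSS + GAA replicate 1. Col9a1, Col9a3, Col19a1 and Col22a1 were untested, with means of 0.015 to 0.89 TPM in DSS + GAA and 0.012 to 0.64 TPM in DSS.

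The remaining called genes were of low level, and the groups overlapped in 1 of these 4, Col23a1. Col28a1, a short collagen known in mouse from the basement membranes around glial cells of peripheral nerve, had 3.19, 2.19, 1.45 and 1.82 TPM in DSS + GAA, against 6.54, 6.08, 6.29 and 7.16 TPM in DSS. Its DSS libraries lay close together, and the log2 fold change was -1.28 ± 0.19 (limma adjusted p = 0.00514). Col13a1, a transmembrane collagen of cell junctions, had 2.27, 1.69, 0.96 and 0.88 TPM in DSS + GAA, against 6.14, 4.12, 3.94 and 4.96 TPM in DSS (-1.26 ± 0.22, limma adjusted p = 0.00628). Neither gene had overlapping groups, and in Col28a1 and Col13a1 DSS replicate 5 was the highest or second highest DSS library. Col25a1, a transmembrane collagen of neurons, averaged 0.69 ± 0.43 TPM in DSS + GAA and 1.80 ± 0.34 TPM in DSS (-0.75 ± 0.20, limma adjusted p = 0.0195). Col23a1, also a transmembrane collagen, averaged 4.30 ± 1.80 TPM in DSS + GAA and 9.11 ± 2.78 TPM in DSS (-0.95 ± 0.29, limma adjusted p = 0.0333). For both genes the 3 other scalings ended the call, as did leaving out DSS replicate 1 or DSS + GAA replicate 2. Col23a1 also lost it with any of DSS replicates 4 and 5 or DSS + GAA replicates 4 and 5 left out (limma adjusted p up to 0.149 for Col23a1 and 0.142 for Col25a1).

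Col8a1, a short-chain collagen of vessels, averaged 7.75 ± 4.27 TPM in DSS + GAA and 10.5 ± 3.60 TPM in DSS and did not pass (-0.47 ± 0.34, limma adjusted p = 0.313). The untested genes here were Col7a1, which anchors basement membranes to the stroma, Col17a1 of hemidesmosomes, Col10a1 of growth plate cartilage, Col8a2 and Col26a1. Col7a1 reached the highest TPM of any untested member, 1.95 TPM in DSS replicate 1, and had 0.30 to 0.38 TPM in DSS + GAA.

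A ratio of genes within a library does not change with a factor applied to that whole library, as in trimmed mean scaling, while quantile normalization can change it. The summed TPM of all 44 genes was 275 to 1181 in DSS + GAA and 830 to 2137 in DSS. That is 0.0275% to 0.118% of all TPM in DSS + GAA and 0.083% to 0.214% in DSS. The 8 most abundant genes (Col3a1, Col4a1, Col6a1, Col1a2, Col4a2, Col6a2, Col5a2 and Col18a1) made up 75.2% to 80.3% of collagen TPM in DSS + GAA and 80.0% to 85.2% in DSS. Basement membrane genes gave 22.3%, 21.8%, 22.0% and 24.1% of collagen TPM in DSS + GAA replicates 1, 2, 4 and 5, against 33.4%, 32.5%, 29.6% and 32.1% in DSS. These shares did not overlap and varied little within a group, although the summed TPM varied more than 2-fold in each group. Col4a1 and Col4a2 held most of the basement membrane sum in every library. Without this pair, the share of the remaining basement membrane genes overlapped between the groups, so the separation is that of the pair. Fibrillar genes gave 44.9% to 50.8% in DSS + GAA and 38.3% to 46.1% in DSS, and the rest gave 26.8% to 31.0% in DSS + GAA and 22.9% to 29.5% in DSS, both with overlap. Mean summed TPM was 138 ± 93.6 in DSS + GAA and 482 ± 185 in DSS for basement membrane genes, and 309 ± 221 in DSS + GAA and 654 ± 273 in DSS for fibrillar genes. No test was run on these sums.

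**Figure D3:**
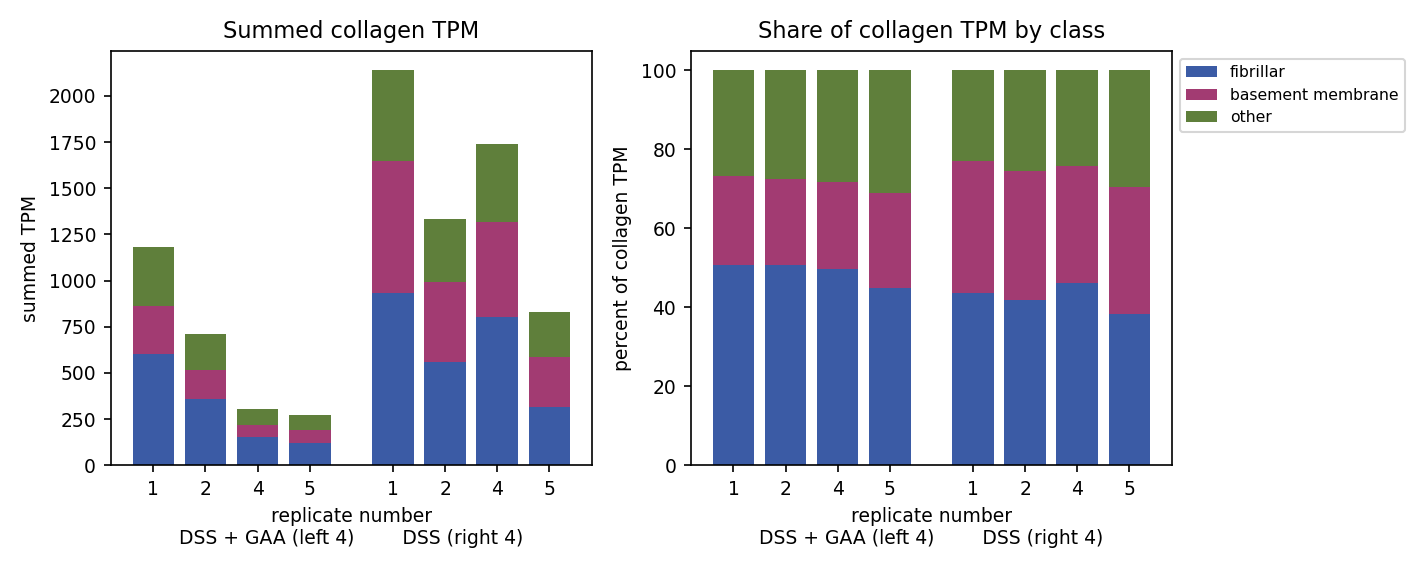
Summed TPM (left) and percent of collagen TPM (right) of fibrillar, basement membrane and other collagen genes in each library, DSS + GAA to the left of DSS. The basement membrane share is 21.8% to 24.1% in DSS + GAA and 29.6% to 33.4% in DSS, while the summed TPM differs widely between libraries of 1 group. Col4a1 and Col4a2 hold most of the basement membrane sum, and the share of the rest of that class overlaps between the groups.

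Ratios of partner chains overlapped between the groups for some molecules and separated them for others. The ratio of Col4a1 to Col4a2 was 1.87 ± 0.16 in DSS + GAA and 2.07 ± 0.30 in DSS, and that of Col6a1 to Col6a2 was 2.33 ± 0.25 and 2.43 ± 0.33 in those groups; both overlapped. The ratio of Col1a1 to Col1a2 of type I was 0.36 ± 0.03 in DSS + GAA and 0.28 ± 0.06 in DSS, also with overlap. The type V and type VI ratios with Col5a1 and Col6a3, and 2 ratios of chains of different molecules, separated the groups. Col3a1 over Col1a1 was 5.02 to 6.37 in DSS + GAA and 6.80 to 7.55 in DSS. Col5a1 over Col5a2 was 0.56 to 0.61 in DSS + GAA and 0.34 to 0.48 in DSS. Col6a3 over Col6a1 was 0.18 to 0.218 in DSS + GAA and 0.066 to 0.178 in DSS. Col4a1 over Col1a1, a ratio chosen after its values were seen, was 2.16 to 3.16 in DSS + GAA and 4.40 to 6.85 in DSS.

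**Figure D4:**
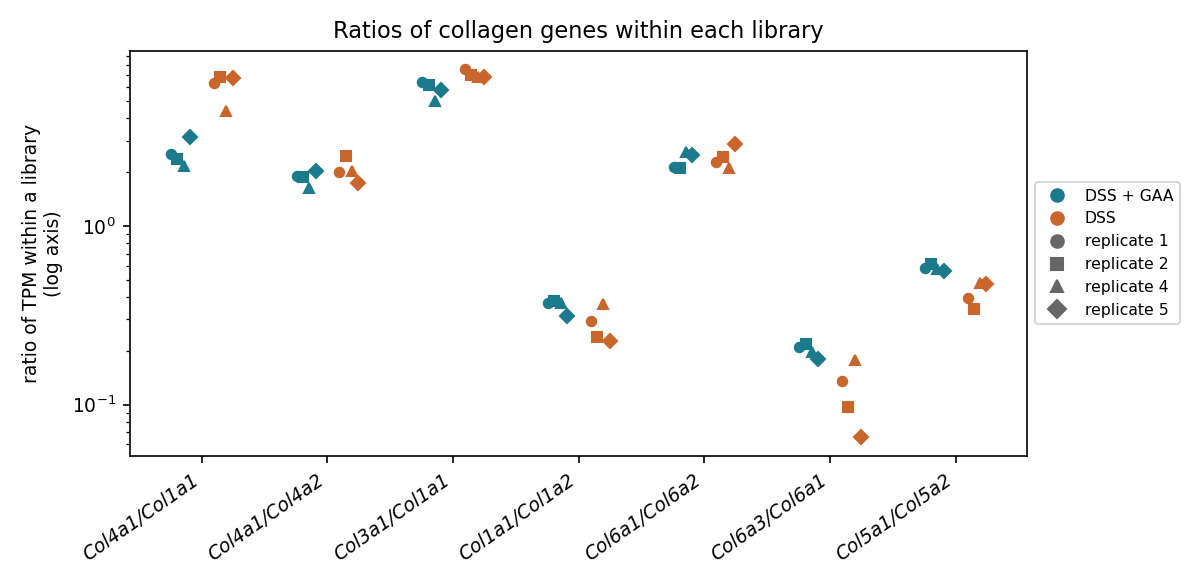
TPM ratio of pairs of collagen genes within each library (log axis), DSS + GAA left of DSS, with a symbol for each replicate number. Col4a1/Col1a1 and Col3a1/Col1a1 are lower in all DSS + GAA libraries, Col6a3/Col6a1 and Col5a1/Col5a2 are higher in all of them, and Col4a1/Col4a2, Col1a1/Col1a2 and Col6a1/Col6a2 overlap.

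The order of the libraries was alike from gene to gene in the DSS + GAA group and less so in the DSS group. DSS + GAA replicate 1 was the highest of its group in 29 of 29 tested collagen genes, and the lowest was replicate 5 in 18 and replicate 4 in 11. In the DSS group, replicate 1 was the highest in 19, and replicates 4 and 5 in 5 each. Replicate 5 was the lowest DSS library in 19, and each of the others was the lowest in 1 to 5. DSS + GAA replicate 1 lay above DSS replicate 5 in 18 of the 29. Marker genes of other cell types were summed by library. Pericyte and endothelial sums did not overlap between the groups, while fibroblast and smooth muscle sums did. Summed TPM of 20 fibroblast genes was 1718 to 4361 in DSS + GAA and 3841 to 7310 in DSS, highest in replicate 1 of each group. The overlap of the fibroblast sums rests on Ly6c1, which did not pass (limma adjusted p = 0.825). It averaged 1359 ± 648 TPM in DSS + GAA and 1178 ± 221 TPM in DSS. Without Ly6c1, the fibroblast sums were lower in all DSS + GAA libraries than in any DSS library. That separation rests in turn on the decorin gene Dcn. With both genes taken out, DSS + GAA replicate 1 lay above DSS replicate 5 and the sums overlapped again. Summed TPM of 8 pericyte genes was 123 to 396 in DSS + GAA and 537 to 924 in DSS. Summed TPM of 12 endothelial genes was 56.9 to 203 in DSS + GAA and 213 to 331 in DSS. Summed TPM of 10 smooth muscle genes was 1653 to 3992 in DSS + GAA and 2098 to 5522 in DSS, highest in DSS replicate 5. Summed TPM of 10 epithelial genes was 23189 to 25002 in DSS + GAA and 14899 to 18557 in DSS. No gene of these lists was listed at 0 in all libraries. The part of these markers in the collagen differences was not tested.

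By limma, 7 of 19 fibroblast, 7 of 8 pericyte, 11 of 12 endothelial and 5 of 7 glial genes were called lower, beside 28.2% of all tested genes. Of the smooth muscle genes 1 of 10 was called lower, and of the epithelial genes 3 of 10 were called higher, beside 5.96% of all tested genes called higher. The medians were -0.84 for fibroblast, -1.25 for pericyte, -1.08 for endothelial, -1.08 for glial, -0.40 for smooth muscle and 0.48 for epithelial genes. Dcn, the fibril-binding proteoglycan decorin, averaged 331 ± 181 TPM in DSS + GAA and 1789 ± 1032 TPM in DSS. It had the smallest p of the fibroblast list, in which 12 tested genes did not pass. Dcn is also counted among the collagen-binding proteoglycans below. Pdgfrb, a growth factor receptor of pericytes, averaged 8.23 ± 3.95 TPM in DSS + GAA and 26.8 ± 6.94 TPM in DSS. With DSS replicate 1 left out, the calls fell to 1 for fibroblast, 3 for pericyte, 2 for endothelial, 2 for glial and 0 for smooth muscle genes, and 1 epithelial gene was called higher. In that fit 12% of all tested genes were called lower and 2.59% higher. With DSS + GAA replicate 1 left out, 11 fibroblast and 3 smooth muscle genes were called lower. Endothelial calls numbered 5 to 7 with any other library left out, and pericyte calls 4 with any of DSS replicate 4 and DSS + GAA replicates 4 and 5 left out. In those same 3 cases 0 smooth muscle genes were called. Epithelial calls numbered 1 with any of DSS + GAA replicates 2 and 4 left out. In trimmed mean, quantile and median scaling, in that order, lower calls were 3, 5 and 3 for fibroblast, 3, 5 and 3 for pericyte and 4, 4 and 4 for endothelial genes, and higher calls were 7, 1 and 8 for epithelial and 2, 1 and 2 for fibroblast genes. Under these scalings, in the same order, 11.6%, 11.3% and 9.20% of all tested genes were called lower and 13.3%, 11.8% and 15.2% higher. With DSS + GAA replicate 4 left out, 1 fibroblast gene was called higher. Mesothelial genes were low, with summed TPM of 2.62 to 3.92 in DSS + GAA and 18.1 to 41.3 in DSS, and 2 of 2 tested were called lower. Of 3 tested cartilage genes 0 passed in limma, while 3 had an unadjusted p under 0.05, with opposite signs. The log2 fold change was 0.61 for Chad, -0.66 for Hapln1 and -0.91 for Sox9. Sox9 was the largest part of the cartilage sum in each library, averaging 18.8 TPM in DSS + GAA and 33.7 TPM in DSS. In this list 1 gene was called lower with DSS + GAA replicate 1 or 5 left out, and 1 was called higher under each other scaling. Of 4 tested skeletal muscle genes 1 was lower and 1 higher. The higher call was lost with any library left out except DSS replicate 2 and DSS + GAA replicate 1, and quantile normalization and median centring gave 2 higher and 0 lower.

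Collagen sums were set against some of these sums within a library, in ratios chosen after the values were seen. The groups overlapped in each ratio whose values are printed below, but not in every pairing. Basement membrane TPM over fibroblast TPM, and over epithelial TPM, was lower in all DSS + GAA libraries than in any DSS library. Fibrillar TPM over fibroblast TPM was 0.072 to 0.138 in DSS + GAA and 0.083 to 0.168 in DSS. Basement membrane TPM over endothelial TPM was 0.793 to 1.30 in DSS + GAA and 1.26 to 2.16 in DSS, and only DSS + GAA replicate 1 lay above DSS replicate 5. Basement membrane TPM over smooth muscle TPM was 0.034 to 0.066 in DSS + GAA and 0.048 to 0.216 in DSS, with DSS replicate 5 the one DSS library inside the DSS + GAA range.

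**Figure D5:**
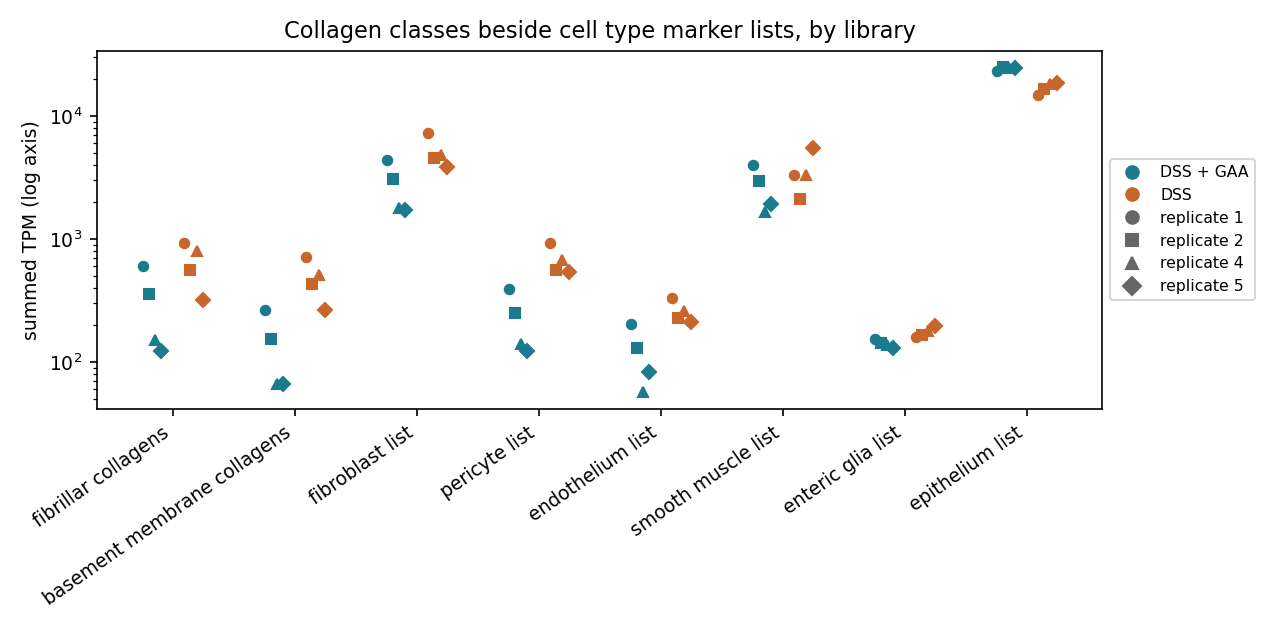
Summed TPM (log axis) of fibrillar and basement membrane collagen genes beside 6 marker lists in each library, DSS + GAA left of DSS, with a symbol for each replicate number. Pericyte, endothelium and enteric glia sums, and narrowly those of basement membrane collagens, are lower in all DSS + GAA libraries. Epithelium sums are higher in all of them, and both collagen classes, fibroblast and smooth muscle sums vary widely within a group. Erbb3, the largest part of the enteric glia sum, averaged 114 ± 5.93 TPM in DSS + GAA and 98.7 ± 28.5 TPM in DSS.

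The genes that make and break down collagen are read beside the 28.2% of all tested genes called lower and 5.96% called higher. Of 18 genes that fold and modify procollagen, 10 were called lower and 0 higher (median log2 fold change -0.75). Plod2, the lysyl hydroxylase of collagen ends, averaged 21.1 ± 12.8 TPM in DSS + GAA and 64.7 ± 23.9 TPM in DSS (-1.67 ± 0.42, limma adjusted p = 0.0164). P4ha2, a prolyl hydroxylase subunit, averaged 4.00 ± 1.14 TPM in DSS + GAA and 9.30 ± 2.48 TPM in DSS (-1.04 ± 0.22, limma adjusted p = 0.00978). With DSS replicates 1 and 4 left out in turn, this list had 1 and 3 calls, with DSS + GAA replicates 4 and 5 left out in turn 4 and 5, and under each other scaling 3. Of 13 tested genes of procollagen secretion and processing, 2 were called lower (4 without DSS + GAA replicate 1) and 0 higher, with a median of -0.31. These were Bmp1, the protease that removes the C-terminal propeptide (5.38 ± 3.02 TPM in DSS + GAA and 16.2 ± 3.04 TPM in DSS), and Adamts2, which removes the N-terminal one (1.99 ± 1.29 TPM in DSS + GAA and 6.94 ± 2.57 TPM in DSS).

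Of 5 crosslinking enzyme genes, 3 were called lower (median -1.51), and 1 under each other scaling or with any of DSS replicates 1, 2 and 4 and DSS + GAA replicates 4 and 5 left out. Lox, lysyl oxidase, averaged 5.44 ± 4.03 TPM in DSS + GAA and 80.4 ± 67.5 TPM in DSS (-3.55 ± 0.55, limma adjusted p = 0.00531). Of 7 tested collagenase and gelatinase genes, 6 were called lower (median -1.85; 5 without DSS replicate 1 and 6 under each other scaling). Mmp14, a membrane-bound collagenase, averaged 30.8 ± 7.48 TPM in DSS + GAA and 84.3 ± 24.8 TPM in DSS (-1.41 ± 0.22, limma adjusted p = 0.00554). The falls of Mmp13 (-4.05) and Mmp8 (-3.83), both secreted collagenases, were larger. Mmp8 is also a granule protein of neutrophils. Of 8 neutrophil genes 6 were called lower, with Mmp8 itself and the gelatinase gene Mmp9 among them. Summed TPM of the 8 was 1278 to 4037 in DSS + GAA and 4521 to 10874 in DSS. Ly6g, the largest part of that sum in each library, did not pass (limma adjusted p = 0.195). The part of neutrophils in the Mmp8 value was not tested.

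Among collagen-binding proteoglycans and fibril regulators, 9 of 15 tested genes were called lower (median -1.45; 4 without DSS replicate 1). Thbs1, thrombospondin, averaged 43.1 ± 30.8 TPM in DSS + GAA and 471 ± 253 TPM in DSS (-3.46 ± 0.59, limma adjusted p = 0.00611). Of 8 tested collagen receptors and uptake genes, 5 were called lower (median -0.72; 2 without DSS replicate 1 or under median centring). Ddr2, a receptor tyrosine kinase for fibrillar collagen, averaged 18.4 ± 11.2 TPM in DSS + GAA and 54.0 ± 14.6 TPM in DSS, and the integrin gene Itga1 averaged 16.5 ± 6.27 TPM in DSS + GAA and 37.9 ± 10.3 TPM in DSS. Of 17 basement membrane partner genes, 12 were called lower (median -1.24), among them the laminin gene Lama5 at 11.9 ± 3.63 TPM in DSS + GAA and 29.9 ± 4.46 TPM in DSS. That count was 1 with DSS replicate 1 left out, 4 to 7 with any of DSS replicates 2 and 4 and DSS + GAA replicates 2, 4 and 5 left out, and 2 to 5 under the other scalings. Of 31 tested TGF-beta and matrix regulator genes, 18 were called lower (median -0.95; 8 with DSS replicate 1 left out, and 11 with DSS + GAA replicate 4 left out or under each other scaling). Itgb8, an integrin that activates latent TGF-beta, averaged 1.03 ± 0.60 TPM in DSS + GAA and 17.6 ± 5.58 TPM in DSS (-3.18 ± 0.27, limma adjusted p = 0.00263). Ccn2, a matricellular gene induced by TGF-beta, averaged 12.6 ± 6.67 TPM in DSS + GAA and 57.0 ± 16.5 TPM in DSS (-2.18 ± 0.34, limma adjusted p = 0.00536). Under trimmed mean scaling and under median centring, 1 gene was called higher in each of the folding, secretion, receptor, basement membrane partner and TGF-beta lists. Quantile normalization called 1 receptor, 1 basement membrane partner and 2 TGF-beta list genes higher. With DSS + GAA replicate 1 left out, 1 secretion and 1 receptor gene were called higher, as were 1 receptor gene without DSS replicate 4 and 1 partner gene without DSS + GAA replicate 4.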

How the data were processed

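Colon RNA of 8 libraries was compared, 4 of DSS + GAA and 4 of DSS. The authors deposited 1 table of TPM values per gene and library with equal totals, so depth and counting error are unknown. Log2 fold changes, p-values and false discovery rates in the authors' deposited table come from a test that no source used here names. The submitters' processing notes list mm10 as the genome and, as tools with neither role nor version, Trimmomatic, Bowtie2, HISAT2, Subread, featureCounts, SAMtools, GATK and edgeR. Per the labels' protocols, poly(A) RNA libraries were sequenced in paired ends; strand is not stated.

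Here, TPM was put on the log2(TPM + 1) scale, which understates changes of low genes, and compared with limma 3.58.1 (R 4.3.3, statmod 1.5.0), group as the only term, with a variance trend and robust empirical Bayes. P-values are two-sided and Benjamini-Hochberg adjusted over the 14217 genes with at least 1 TPM in at least 4 libraries. Errors are SD over 4 libraries, or SE of the fit. The rule gave collagens averaging 10 TPM or more in either group by library, or by mean and SD for the less abundant of them, and the rest by mean; Col6a5, Col11a1, Col13a1 and Col28a1 are given by library after their values were seen. Of other lists up to 3 genes with the smallest p are named. Collagen classes and lists were chosen with earlier results of these data known. Coordinates match GENCODE vM21 for all 44 genes. On simulated data for this comparison over 14217 genes, 72 of 100 genes changed by 1 and 88 of 100 changed by 2 on the log2 scale were recovered, with 4 false calls. The changed genes were drawn from the more abundant ones, and the simulated noise was independent between genes. Collagen genes of low level, and shifts that many genes of a library share, were therefore not covered.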

Additional observations from a re-analysis of the deposited data

Results flagged for a closer look

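The DSS libraries of Col14a1, a fibril-associated collagen, held 1 value far from the others. Its TPM was 3.78 in DSS replicate 4, against 1.49, 1.34 and 1.74 in DSS replicates 1, 2 and 5, and the gap to the nearest library was 0.836 of the whole range. That was 1 of 58 groups examined, and chance gives about 1 in 20.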

How the results depend on the processing

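Alternatives were 2 pseudocounts, 2 filters, 3 scalings, a plainer empirical Bayes fit, a replicate block and leaving out each library. No collagen gene was called higher in any of them. Called lower on TPM as deposited were 15 collagen genes, 4 fibrillar, 3 basement membrane and 8 other. Under trimmed mean scaling these were 8 collagen, 2 fibrillar and 4 other genes, with 1648 genes lower and 1890 higher over all. Under quantile normalization they were 9, 2 and 5, with 1601 lower and 1677 higher. Under median centring they were 7, 1 and 4, with 1308 lower and 2165 higher. The median of all tested genes lay at -0.25 as deposited and at -0.0040, 0.02 and 0.05 under these scalings. A filter of 5 TPM left 19 collagen genes tested, with 9 collagen (47.4%), 2 fibrillar and 4 other calls, beside 26.5% of all tested genes. No filter gave 20 collagen calls among 44 tested (45.5%), beside 23.5% of all tested genes, and 5 of the 20 were basement membrane genes. Leaving out 1 library gave 7 to 23 collagen, 1 to 7 fibrillar, 2 to 6 basement membrane and 4 to 10 other calls, and 1676 to 4435 lower and 361 to 1277 higher genes over all. The log2 fold change of Col20a1 turned to 0.0114 (trimmed mean), 0.255 (quantile), 0.114 (median) and 0.0018 (without DSS + GAA replicate 4), within -0.33 to 0.0018 over the libraries left out, and that of Col14a1 to -0.043 (without DSS + GAA replicate 1), up to 0.42. The cause was not tested. With the replicate block, 19 collagen genes (65.5%), 7 of them fibrillar, were called lower, beside 23.5% of all tested genes. Deviations of same-numbered libraries correlated at 0.18, -0.109, 0.146 and -0.030, so the numbers were not taken as pairs. TPM holds no depth, so limits of detection are unknown.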
